A study of Mus musculus with 12 samples.

Results

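The J segments of the α and β chains of the T cell receptor were counted in islet T cells of prediabetic NOD mice, segment by segment. Every productive TRA and TRB contig with a J call was taken, and 54 segments were seen, 42 TRAJ and 12 TRBJ, of the 74 TRAJ and TRBJ genes that RefSeq lists, 10 of them pseudogenes. Cells with 1 TRB and either 1 or 2 TRA chains were kept, a clonotype was defined by its CDR3 nucleotide sequences, and each was counted once in each population of a library, whatever its number of cells. The 13590 cells kept held 889 clonotypes of Treg, 1853 of CD8 cells and 6488 of CD4 conventional cells, with some cells in no population.

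All 4 biological replicates were of the same kind, T cells sorted as live and positive for the αβ receptor from pancreatic islets of female NOD mice aged 12 weeks, and no other strain or treatment was included. Each replicate gave an mRNA library, a receptor library and a library of antibody tags. Counts of 4 antibodies were read from the mRNA matrices. Treg were barcodes with at least 1 UMI (unique molecular identifier, 1 captured molecule) of Foxp3, the lineage factor of regulatory T cells. CD8 cells had a CD4 antibody count under 20 and at least 2 UMIs of Cd8a and Cd8b1. CD4 conventional cells had a CD4 antibody count of at least 40 and no UMI of Cd8a, Cd8b1 or Foxp3. A clonotype with at least 2 cells in its population and library was called expanded and one with a lone cell single. Whether each replicate was 1 mouse or a pool is not stated, so p-values refer to these libraries. Those of the tests by segment pool variance over segments, so they do not measure a segment's own spread between libraries alone.

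A TRA chain is made by joining a V to a J segment, and a TRB chain by joining a V, a D and a J segment, with bases trimmed and added at the joints. The J segment supplies the end of CDR3, the loop that meets the peptide, and the stretch that follows it. The TRAJ segments lie in a row before a single constant gene, numbered down towards it, and a cell can rearrange the TRA locus again with a V further upstream and a J further downstream. The TRBJ segments form the clusters TRBJ1 and TRBJ2, each before a constant gene of its own. Receptors built with particular V and J pairs are known in the mouse: TRAV11 with TRAJ18 in invariant NKT cells, TRAV1 with TRAJ33 in MAIT cells, TRAV5 with TRAJ53 in receptors for an insulin B chain peptide, and TRAV16 with TRAJ42 in a CD8 receptor for a peptide of the islet protein IGRP.

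The CDR3 ends of the segments on which the results turn were read from the chains themselves, 5′ to 3′. A base is shown where most chains of the segment carried the same base at that distance from the CDR3 end, and it is in capitals where at least 90% did, so the lower-case start is the part that trimming often removes. The last 3 bases encode the conserved residue that closes CDR3. The first 4 TRAJ differed in usage between groups or belong to a known receptor, the TRBJ led in usage or differed between CD8 and CD4 conventional cells, and TRAJ31 and TRAJ2 had the shortest and the longest mean TRA CDR3.
TRAJ23: gaatTATAACCAGGGGAAGCTTATCTTT
TRAJ53: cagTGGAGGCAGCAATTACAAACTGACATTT
TRAJ16: gcaaCTTCAAGTGGCCAGAAGCTGGTTTTT
TRAJ42: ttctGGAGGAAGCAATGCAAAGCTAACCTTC
TRAJ31: aataacAATAACAGAATCTTCTTT
TRAJ2: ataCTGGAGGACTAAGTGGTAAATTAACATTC
TRBJ2-7: tatGAACAGTACTTC
TRBJ2-5: ccaaGACACCCAGTACTTT
TRBJ2-3: agtGCAGAAACGCTGTATTTT
TRBJ2-1: ctatGCTGAGCAGTTCTTC
In RefSeq on the build GRCm38 (mm10), TRAJ53 lies at chr14:54162644-54162709, TRAJ42 at chr14:54175773-54175836, TRAJ31 at chr14:54187895-54187951, TRAJ23 at chr14:54196081-54196140, TRAJ16 at chr14:54203134-54203194 and TRAJ2 at chr14:54217836-54217901, each upstream of the constant gene. TRBJ2-1 lies at chr6:41542754-41542803, TRBJ2-3 at chr6:41543223-41543271, TRBJ2-5 at chr6:41543453-41543501 and TRBJ2-7 at chr6:41543810-41543856.

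The receptor libraries held 3426 to 5280 barcodes and the mRNA libraries 26861163 to 37834174 UMIs, and 18522 of 18695 receptor barcodes recurred among the mRNA barcodes of the same replicate. Between mRNA libraries 378 of 27044 barcodes were shared, and 99 barcodes with a paired receptor, but 0 of these 99 carried the same clonotype in both libraries. The populations differed in their marker lists. The summed Treg list ran from 2773 to 2928 CPM in Treg and from 638 to 965 CPM in CD4 conventional cells. The CD8 list ran from 4352 to 9155 CPM in CD8 cells and from 309 to 760 CPM in CD4 conventional cells. It includes Cd8a and Cd8b1, which the gates used, so part of that gap was fixed in advance. Its other genes, Nkg7 and Ccl5, were in no gate. Nkg7 ran from 1044 to 1864 CPM in CD8 and from 103 to 216 CPM in CD4 conventional cells. Ccl5 ran from 1649 to 6003 CPM and from 206 to 544 CPM in the same order. The lists of other cell types summed to at most 268 CPM, beside 3899 to 4801 CPM for the T cell list, except for acinar markers, which reached 3019 CPM in 1 Treg library against at most 178 CPM in CD4 conventional cells. What part free RNA played in the gates was not tested. Within the contigs, all 2797 TRBJ1 and 6336 TRBJ2 chains with a constant gene call carried the constant gene of their own cluster. Both calls come from the same contigs, so this is no check by other reads. The mRNA library gave a check by other reads. It showed the same TRAJ as the contig in 595 of 916 cases (65.0%, 95% interval 61.8 to 68.0, Clopper-Pearson). The same TRBJ was seen in 240 of 426 (56.3%, 51.5 to 61.1), against 3.63% for TRAJ and 11.5% for TRBJ by usage alone. Intervals cover counting error only.

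TRAJ usage was spread over the whole row in each population, and no segment took more than 6.20% of CD4 conventional chains in any library. TRAJ23 was the most used in CD4 conventional clonotypes with 5.68% ± 0.55 of TRA chains (SD, n = 4 libraries). TRAJ31 followed with 4.87% ± 1.12, then TRAJ49 with 4.26% ± 0.37, TRAJ27 with 3.96% ± 0.74, TRAJ48 with 3.78% ± 0.42 and TRAJ26 with 3.77% ± 0.30. These means lie within about 1 SD of their neighbours, TRAJ23 and TRAJ31 included, and TRAJ23 led in each library except replicate 3, where TRAJ31 had 5.51% and TRAJ23 4.91%. The least used were TRAJ11 (0.64% ± 0.17), TRAJ4 (0.59% ± 0.11), TRAJ5 (0.49% ± 0.17) and TRAJ2 (0.41% ± 0.23), which all lie at the end of the row nearest the constant gene. In Treg the leading segments were TRAJ34 (4.39% ± 0.36), TRAJ23 (4.35% ± 1.11) and TRAJ31 (4.34% ± 1.32), and in CD8 clonotypes TRAJ26 (4.72% ± 0.58), TRAJ32 (4.16% ± 1.19) and TRAJ49 (4.14% ± 0.96). The order among these leaders is not resolved beyond their spread.

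**Figure D1:**
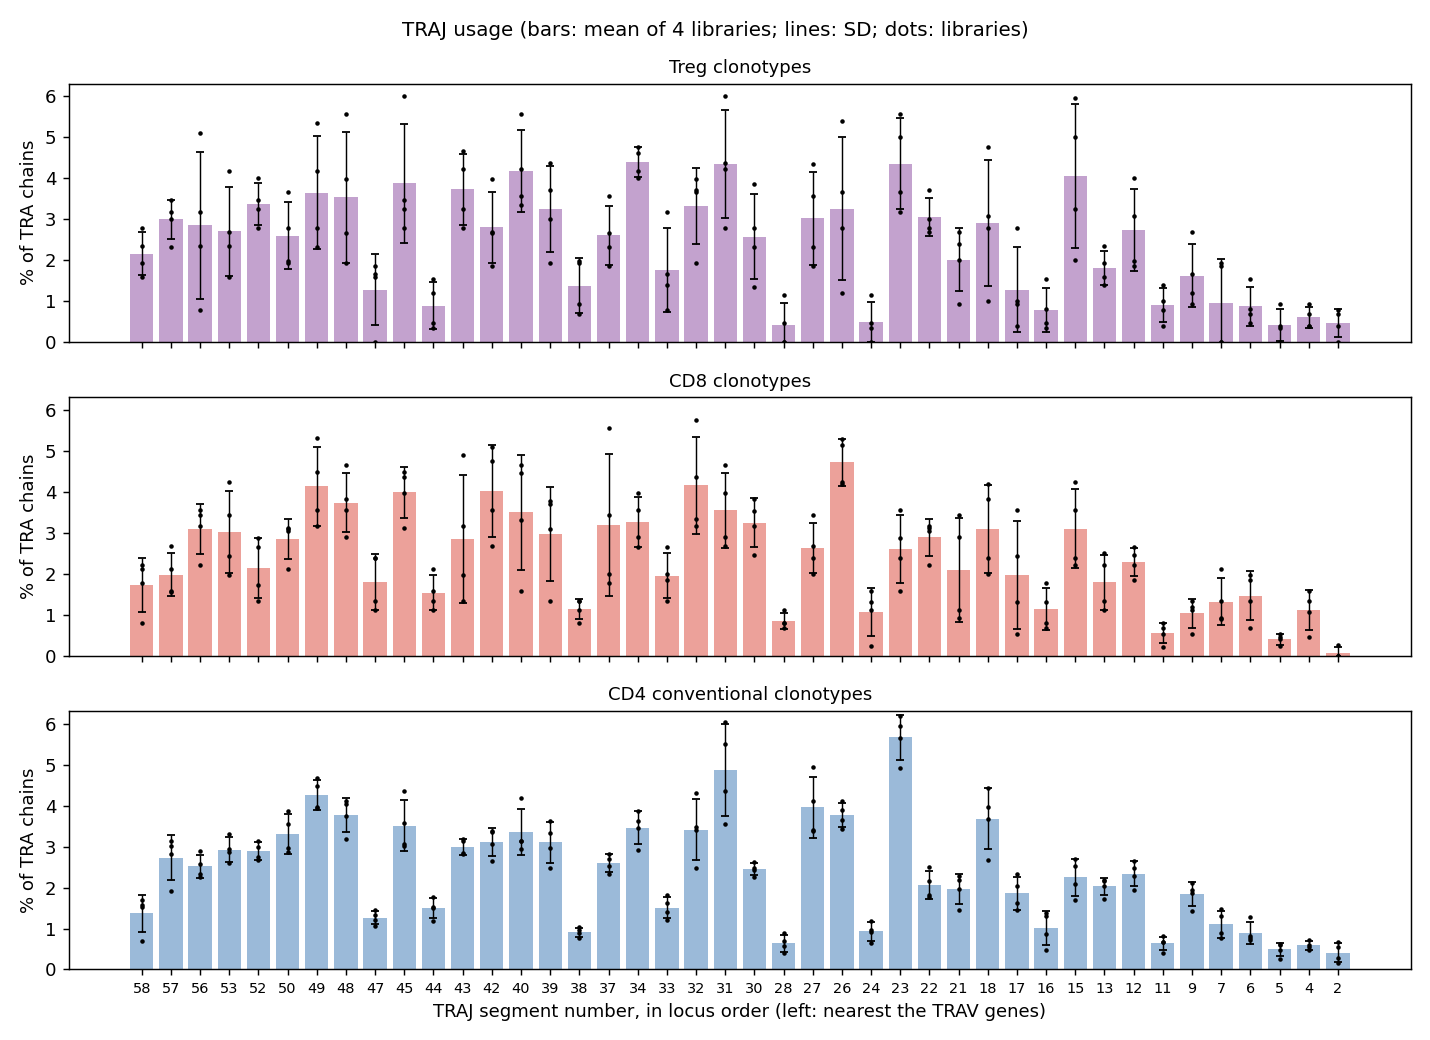
Percent of TRA chains that carried each of the 42 TRAJ segments in Treg, CD8 and CD4 conventional clonotypes, in locus order; bars are means of 4 libraries, lines the SD and dots the libraries. TRAJ23 is the highest bar among CD4 conventional clonotypes (5.68%) and stands at 2.60% among CD8 clonotypes.

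Along the row, segments numbered 41 and above, the end nearest the V genes, took 36.4% ± 5.34 of Treg chains, 36.9% ± 0.76 of CD8 chains and 36.2% ± 1.54 of CD4 conventional chains. The share was higher in Treg than in CD4 conventional cells in 2 of 4 libraries (difference 0.18 percentage points ± 6.01, SD; two-sided exact permutation test, p = 1). It was likewise higher in CD8 than in CD4 conventional cells in 2 of 4 (difference 0.70 ± 1.68; exact p = 0.75). With 4 pairs this test allows no p under 0.12, and over the 17 such tests of shares and lengths the smallest Benjamini-Hochberg adjusted p was 0.53, so raw p are given. Segments 21 to 40 took 44.3% ± 1.90 of Treg, 43.8% ± 0.64 of CD8 and 44.7% ± 2.23 of CD4 conventional chains, and segments 1 to 20 took 19.3% ± 3.57, 19.3% ± 0.74 and 19.1% ± 2.08 in the same order.

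TRAJ23 was lower in CD8 than in CD4 conventional clonotypes. It made up 1.59%, 2.38%, 3.56% and 2.88% of TRA chains in the CD8 clonotypes of replicates 1 to 4 (50 of 2036 chains), against 6.20%, 5.65%, 4.91% and 5.94% in CD4 conventional clonotypes (408 of 7159). Every CD8 value lay below every CD4 conventional value. By edgeR's quasi-likelihood test, blocked by replicate and adjusted (Benjamini-Hochberg) over the 42 TRAJ, TRAJ23 was lower in CD8 by a log2 fold change of −1.19 ± 0.24 (SE; adjusted p = 5.1e-05). It was the only TRAJ called in that comparison, 1 of 42 (2.38%), while 7 of 42 (16.7%) had an unadjusted p under 0.05. The call held in all 13 alternatives, with an adjusted p between 7.8e-06 and 0.035, DESeq2 and the removal of each replicate included. TRAJ23 held rank 1 of the TRAJ in CD4 conventional, rank 2 in Treg and rank 21 in CD8 clonotypes. In Treg it made up 3.17%, 5.0%, 5.56% and 3.67% of chains, a range that touches both other populations.

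The lower share of TRAJ23 was not carried by a single V family. Of the 12 TRAV families with at least 50 chains in both populations, TRAJ23 had a lower share in CD8 than in CD4 conventional clonotypes in 12, and in 2 of these (TRAV4 and TRAV10) no CD8 chain carried it. In the largest family, TRAV6, it made up 11 of 330 CD8 chains (3.33%) and 89 of 1176 CD4 conventional chains (7.57%). In TRAV13 it made up 1 of 191 CD8 chains (0.52%) and 19 of 646 CD4 conventional chains (2.94%). No V led strongly among its chains: TRAV9-1 gave 8 of the 50 CD8 chains, and TRAV6-6 and TRAV6N-7 gave 26 each of the 408 CD4 conventional chains. The CDR3 of TRAJ23 chains averaged 13.4 ± 0.22 amino acids in CD8 and 13.4 ± 0.10 in CD4 conventional clonotypes (SD, n = 4; limma difference −0.0019 ± 0.16, SE). Among single clonotypes TRAJ23 stood at 2.39% ± 1.10 in CD8 and 5.74% ± 0.52 in CD4 conventional cells. Among expanded ones it stood at 4.67% ± 2.12 in CD8, on 9 chains, and 5.10% ± 2.04 in CD4 conventional cells, on 29.

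No other TRAJ passed the test between CD8 and CD4 conventional clonotypes. The lowest that moved alike in 4 of 4 libraries were TRAJ2 with 0.066% in CD8 and 0.41% in CD4 conventional clonotypes (adjusted p = 0.20 in edgeR), and TRAJ9 with 1.04% and 1.84% in the same order (log2 fold change −0.71 ± 0.34, adjusted p = 0.23). TRAJ2 rested on 2 of 2036 CD8 chains and 31 of 7159 CD4 conventional chains, a ratio of 0.23 with an exact 95% counting interval of 0.026 to 0.89, and without replicate 1 it became a call. The highest that moved alike in 4 of 4 were TRAJ22 (2.89% in CD8 and 2.06% in CD4 conventional), TRAJ30 (3.25% and 2.45%) and TRAJ26 (4.72% and 3.77%), with log2 fold changes of 0.52, 0.41 and 0.35 and adjusted p between 0.27 and 0.38. The other segments with an unadjusted p under 0.05 were TRAJ4 (1.00 ± 0.41) and TRAJ6 (0.77 ± 0.35), higher in CD8 in 3 of 4 libraries, and TRAJ27 (−0.59 ± 0.24) and TRAJ31 (−0.47 ± 0.22), lower in 4 and 3 of 4, with adjusted p between 0.20 and 0.23. The median log2 fold change over all 42 TRAJ was 0.05.

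**Figure D2:**
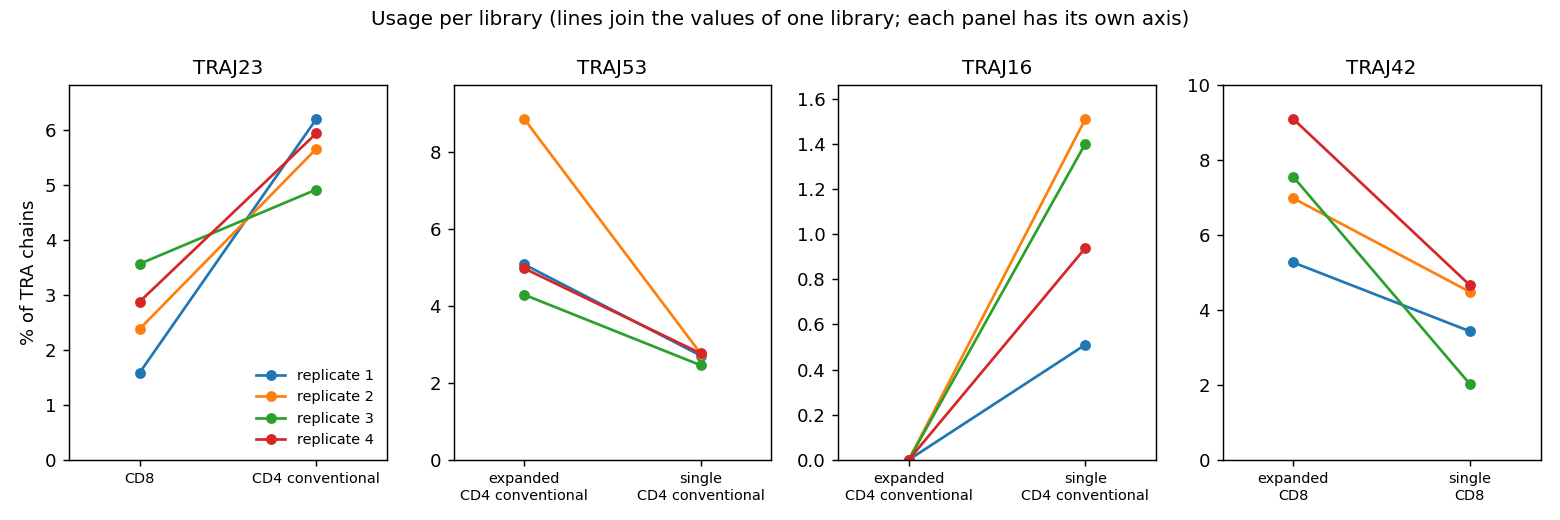
Percent of TRA chains per library for 4 TRAJ segments, TRAJ23 in CD8 and CD4 conventional clonotypes, TRAJ53 and TRAJ16 in expanded and single CD4 conventional clonotypes, and TRAJ42 in expanded and single CD8 clonotypes; a line joins the values of 1 library. TRAJ23 is lower in CD8 in each library, TRAJ53 and TRAJ42 are higher among expanded clonotypes in each library, and TRAJ16 is at 0 among expanded CD4 conventional clonotypes.

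Treg and CD4 conventional clonotypes, which share their CD4 conventional libraries with the CD8 comparison, were not told apart by TRAJ usage: edgeR called 0 of 42 (0%) and DESeq2 0, and 1 of 42 (2.38%) had an unadjusted p under 0.05 with either tool. In edgeR that segment was TRAJ15, at 4.05% in Treg and 2.26% in CD4 conventional clonotypes (log2 fold change 0.80 ± 0.30, adjusted p = 0.30), higher in 3 of 4 libraries. TRAJ58 (2.16% in Treg and 1.37% in CD4 conventional), TRAJ22 (3.04% and 2.06%) and TRAJ34 (4.39% and 3.46%) were higher and TRAJ44 (0.88% and 1.50%) lower in 4 of 4, with adjusted p between 0.84 and 0.87. The median SE over the TRAJ was 0.32 on the log2 scale, on 1028 Treg chains. Of 889 Treg and 6488 CD4 conventional clonotypes, 90 were found in both populations. The split rests on at least 1 UMI of Foxp3, so a Treg without a Foxp3 UMI can count as CD4 conventional. What part this played in the shared clonotypes or in the comparison of usage was not tested.

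Among the TRBJ, the TRBJ2 cluster supplied 67.0% ± 4.44 of Treg, 69.1% ± 1.68 of CD8 and 69.1% ± 1.37 of CD4 conventional chains. TRBJ2-7 led in all 3 populations, with 23.9% ± 2.59 in Treg, 23.0% ± 2.25 in CD8 and 21.8% ± 1.29 in CD4 conventional clonotypes. In CD4 conventional clonotypes TRBJ2-5 (13.2% ± 0.43), TRBJ2-1 (10.9% ± 0.51), TRBJ2-3 (10.7% ± 0.88) and TRBJ1-1 (9.90% ± 0.48) followed, of which the last 3 lie within their spread of each other. TRBJ1-4 (7.65% ± 0.57) and TRBJ2-4 (7.56% ± 0.33) did not differ beyond their spread, nor did TRBJ1-3 (4.36% ± 0.63) and TRBJ1-2 (4.23% ± 0.35). TRBJ2-2 stood at 5.04% ± 0.59. TRBJ1-5 (2.40% ± 0.20) and TRBJ1-6 (2.33% ± 0.14) were the rarest, and TRBJ2-6 and TRBJ1-7 were not among the segments called in productive chains.

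In CD8 clonotypes TRBJ2-5 and TRBJ2-3 were lower than in CD4 conventional clonotypes. TRBJ2-5 made up 11.2%, 9.01%, 9.43% and 10.3% of TRB chains in CD8, against 13.5%, 13.4%, 12.6% and 13.2% in CD4 conventional clonotypes, with no overlap (log2 fold change −0.38 ± 0.11, adjusted p = 0.016 in edgeR). TRBJ2-3 made up 8.42%, 9.59%, 7.69% and 7.91% in CD8, against 10.5%, 11.6%, 11.2% and 9.56% in CD4 conventional clonotypes, and the highest CD8 value just passed the lowest CD4 conventional one (−0.35 ± 0.13, adjusted p = 0.038). These were the 2 calls among 12 TRBJ (16.7%), and 5 of 12 (41.7%) had an unadjusted p under 0.05. Both calls were lost with TMM scaling, in DESeq2 (adjusted p = 0.18 for each) and without replicate 1, 3 or 4, while the direction held throughout. TRBJ2-1 ran the other way, at 11.8%, 18.3%, 12.2% and 12.5% in CD8, against 10.7%, 10.3%, 11.4% and 11.2% in CD4 conventional clonotypes (0.28 ± 0.11, adjusted p = 0.054), with replicate 2 far above the rest and a log2 fold change of 0.13 without it. TRBJ1-6 (3.34% in CD8 and 2.33% in CD4 conventional), TRBJ2-2 (6.08% and 5.04%) and TRBJ1-4 (6.13% and 7.65%) also kept 1 direction in 4 of 4 libraries with adjusted p of 0.097, 0.16 and 0.097. The share of the whole TRBJ2 cluster was lower in CD8 than in CD4 conventional clonotypes in 3 of 4 libraries (difference −0.029 percentage points ± 2.97; two-sided exact permutation test, p = 1). Shares sum to 100% within a chain, so a lower segment raises the others.

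**Figure D3:**
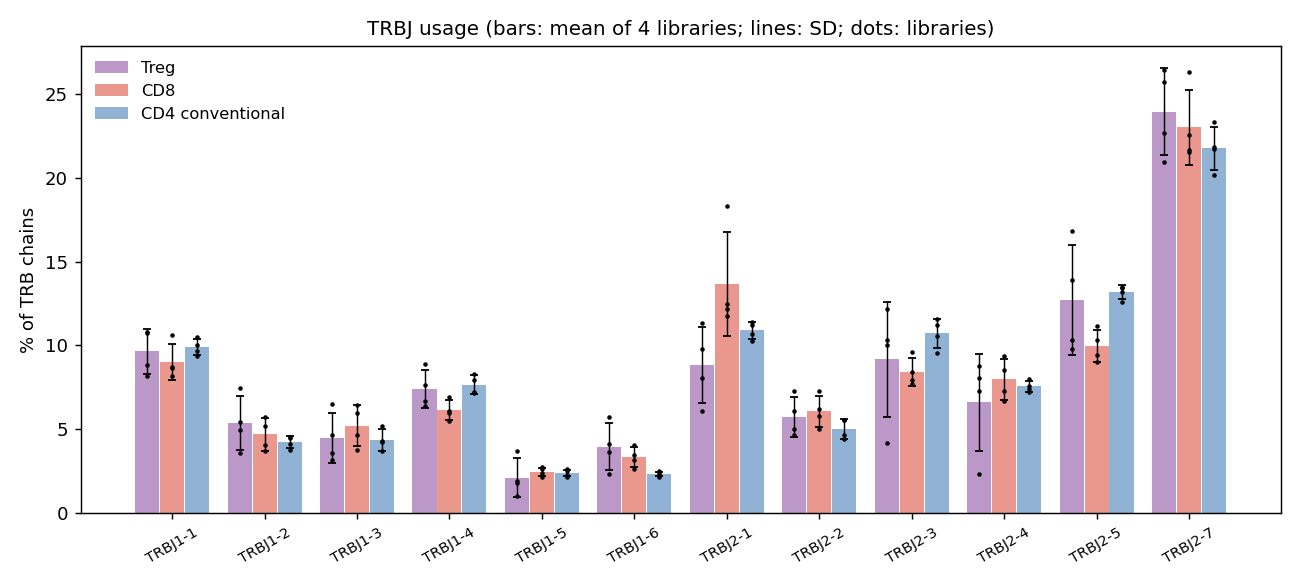
Percent of TRB chains that carried each of the 12 TRBJ segments in Treg, CD8 and CD4 conventional clonotypes; bars are means of 4 libraries, lines the SD and dots the libraries. TRBJ2-7 leads in each population, and the CD8 bars of TRBJ2-5 (9.98%) and TRBJ2-3 (8.40%) stand below those of CD4 conventional clonotypes (13.2% and 10.7%).

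In Treg no TRBJ passed the test against CD4 conventional clonotypes, with 0 of 12 calls (0%) in edgeR, 0 in DESeq2 and 1 (8.33%) at an unadjusted p under 0.05 with either tool. That was TRBJ1-6, at 3.64%, 2.34%, 4.12% and 5.75% in Treg, against 2.49%, 2.39%, 2.26% and 2.18% in CD4 conventional clonotypes (log2 fold change 0.80 ± 0.28, adjusted p = 0.075). It was higher in 3 of 4 libraries and became a call without replicate 2 and with clonotypes of 1 TRA chain only. The TRBJ2 share was higher in Treg than in CD4 conventional clonotypes in 2 of 4 libraries (−2.14 percentage points ± 3.40; exact p = 0.5).

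Expanded clonotypes were compared with single ones within each population. Of CD4 conventional clonotypes 510 were expanded, with 552 TRA chains, and 5978 single, with 6607. TRAJ53 was higher among the expanded, with 5.07%, 8.85%, 4.29% and 4.97% of TRA chains, against 2.70%, 2.76%, 2.45% and 2.76% among single clonotypes. Every expanded value lay above every single value (log2 fold change 1.06 ± 0.33, adjusted p = 0.029 in edgeR). TRAJ16 was carried by 0 of 552 expanded chains, which allows a share of up to 0.54%, and by 68 of 6607 single chains (0.51%, 1.51%, 1.40% and 0.94% in replicates 1 to 4). Against that limit of 3 counts over the group, which covers counting error only, it was at least 1.89-fold lower among the expanded (adjusted p = 0.029). These were the 2 calls of 42 (4.76%), while 3 (7.14%) had an unadjusted p under 0.05. Without replicate 2, 3 or 4 each lost its call, as in DESeq2 (0 calls of 42, adjusted p = 0.25 and 0.14) and with clones counted as expanded from 3 cells. With clone size taken over the whole library, TRAJ16 had an adjusted p of 0.84 and a log2 fold change of −1.20. TRAJ57 (3.79% of expanded and 2.64% of single chains) was higher, and TRAJ50 (2.40% and 3.39%) and TRAJ21 (1.27% and 2.03%) lower, in 4 of 4 libraries with an adjusted p of 0.98 each.

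TRAJ53 of CD4 conventional cells was often joined to TRAV5 genes. These, nearly all TRAV5-4, were its partner in 13 of 31 expanded chains and in 30 of 176 single chains, a difference that was not tested, while TRAV5-4 made up 11.4% of all expanded and 6.58% of all single TRA chains. The 43 clonotypes with TRAV5 and TRAJ53 held 80 cells, 50 of them in the 13 expanded ones, and came from each library (9, 10, 6 and 18 in replicates 1 to 4). They carried 24 different amino acid CDR3s, and 26 of the 43 were 15 residues long. The commonest CDR3 occurred in 10 clonotypes and 20 cells, 2 or 3 clonotypes per library, joined to 9 different TRB sequences, and 4 of these clonotypes were expanded. Its most frequent nucleotide form is given with the bases that match the TRAJ53 end in capitals.
TRAV5-TRAJ53: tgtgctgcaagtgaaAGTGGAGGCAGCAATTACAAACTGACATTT
In CD8 cells 5 clonotypes had TRAV5 with TRAJ53, and in Treg 6.

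Of CD8 clonotypes 182 were expanded, with 197 TRA chains, and 1671 single, with 1839, and edgeR called 0 of 42 TRAJ (0%), DESeq2 0, with 4 (9.52%) at an unadjusted p under 0.05 in each. TRAJ42 made up 5.26%, 6.98%, 7.55% and 9.09% of expanded chains, against 3.43%, 4.48%, 2.02% and 4.66% of single chains, so that every expanded value lay above every single one (log2 fold change 1.00 ± 0.48, adjusted p = 0.39). TRAJ53 made up 3.51%, 2.33%, 13.2% and 6.82% of expanded chains, against 1.86%, 3.58%, 3.03% and 1.96% of single chains (1.39 ± 0.52, adjusted p = 0.15), highest in replicate 3. TRAJ24 (2.06% of expanded and 0.94% of single chains) and TRAJ13 (2.50% and 1.71%) were also higher in 4 of 4 libraries, with adjusted p of 0.71 and 0.82. TRAJ58 was carried by 0 of 197 expanded and 37 of 1839 single chains (adjusted p = 0.15). A limit of 3 counts among the expanded chains lies 1.32-fold below the single share. TRAJ39 was carried by 1 expanded chain and 63 single chains, a ratio of shares of 0.15 with an exact 95% counting interval of 0.0037 to 0.86 (adjusted p = 0.15), and TRAJ5 by 0 and 8. That limit and that interval cover counting error only, and these segments were named for their low values.

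TRAJ42 came with TRAV16 in 11 of 14 expanded CD8 chains (78.6%) and in 18 of 66 single CD8 chains (27.3%). These counts take in every gene of the TRAV16 family. The gene TRAV16N alone made up 18.3% of all expanded and 10.6% of all single CD8 TRA chains. The 29 CD8 clonotypes with both segments held 176 cells and came from each library (3, 8, 5 and 13). A single amino acid CDR3 of 15 residues accounted for 17 of the 29, with 148 cells in all 4 libraries, 10 different TRB sequences and 8 expanded clonotypes. Its most frequent nucleotide form, in 11 clonotypes, keeps the whole TRAJ42 end, in capitals.
TRAV16-TRAJ42: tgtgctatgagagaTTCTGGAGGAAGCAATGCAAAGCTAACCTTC
In CD4 conventional cells TRAV16 was joined to TRAJ42 in 5 of 19 expanded and 10 of 205 single chains. The numbers of clonotypes overstate the number of clones where a second TRA chain was read in only some of the cells. With clonotypes of 1 library merged when they shared the TRB and a TRA, an alternative added after seeing the data, the CD8 counts were 10 of 15 expanded and 15 of 60 single chains, and TRAJ42 stood at 6.71% of expanded and 3.36% of single chains (adjusted p = 0.27).

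The largest clone shows both the weight of a clone in cells and that splitting. In replicate 3, 142 CD8 cells carried 1 TRB and 2 TRA chains and a further 86 carried the same TRB with the first of those TRA chains alone. Their sequences follow with the bases that match the segment end in capitals.
TRBV16-TRBJ1-4: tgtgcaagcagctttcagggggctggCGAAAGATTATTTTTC
TRAV6N-7-TRAJ53: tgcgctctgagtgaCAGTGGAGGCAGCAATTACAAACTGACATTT
TRAV5-4-TRAJ50: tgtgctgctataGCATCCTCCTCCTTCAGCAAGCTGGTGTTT
The TRAJ50 chain was read in 157 CD8 cells of 2 clonotypes, 1 of them without the TRAJ53 chain. Merged, the clone held 243 cells. Counted by cells rather than clonotypes, TRAJ53 therefore took 25.6% of CD8 TRA chains in replicate 3, against 1.94%, 6.88% and 1.94% in replicates 1, 2 and 4. A further pair of CD8 clones, of 66 cells in replicate 4 and 36 in replicate 1, carried an identical TRA nucleotide sequence with TRBV3-TRBJ1-2 chains that were similar but not identical.
TRAV16N-TRAJ37: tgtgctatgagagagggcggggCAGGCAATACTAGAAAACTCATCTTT
TRBV3-TRBJ1-2 in replicate 4: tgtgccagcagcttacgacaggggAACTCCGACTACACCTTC
TRBV3-TRBJ1-2 in replicate 1: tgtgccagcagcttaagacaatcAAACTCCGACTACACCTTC
By cells TRAJ37 took 9.56% of CD8 chains in replicate 4 and 6.69% in replicate 1, against 4.17% in replicate 2 and 0.90% in replicate 3.

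Whether expansion acted alike in CD8 and CD4 conventional clonotypes was tested as an interaction in the same edgeR fit. TRAJ16 was called, 1 of 42 (2.38%), beside 4 (9.52%) at an unadjusted p under 0.05. It had 5 of 197 expanded and 19 of 1839 single chains in CD8, and 0 of 552 and 68 of 6607 in CD4 conventional clonotypes (adjusted p = 0.032). The call was lost, among other settings, in DESeq2 (0 calls of 42, 3 unadjusted), with TMM scaling, with the merged clonotypes (adjusted p = 0.086) and without any 1 of the replicates. For TRAJ53 the interaction was 0.33 ± 0.57 (adjusted p = 0.81) and for TRAJ42 0.85 ± 0.59 (adjusted p = 0.69), so a difference between the populations was not shown. In Treg, 83 expanded clonotypes with 90 TRA chains gave 0 calls of 42 (0%) with edgeR and DESeq2, and 2 (4.76%) and 4 segments with an unadjusted p under 0.05. TRAJ40 stood at 9.40% of expanded and 3.67% of single Treg chains (adjusted p = 0.54). TRAJ22, TRAJ21 and TRAJ13 were at 0 of 90 expanded chains, as were other TRAJ. That count allows a share of up to 3.33%, which is above the share of each of them among single chains (3.3% for TRAJ22, the highest).

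Among the TRBJ, expansion gave 0 calls of 12 (0%) in each population and in the interaction, with edgeR and with DESeq2. Segments with an unadjusted p under 0.05 in edgeR numbered 2 (16.7%) in CD4 conventional, 0 in CD8 and 1 (8.33%) in Treg clonotypes, and 1 (8.33%) in the interaction; with DESeq2 they numbered 2, 0, 1 and 0. In CD4 conventional clonotypes TRBJ2-3 (7.28% of expanded and 11.0% of single chains, adjusted p = 0.11), TRBJ1-1 (6.89% and 10.2%, adjusted p = 0.18) and TRBJ1-5 (1.72% and 2.46%) were lower, and TRBJ1-6 (3.70% and 2.22%) and TRBJ2-1 (13.0% and 10.7%) higher, in 4 of 4 libraries. In Treg, TRBJ1-3 (9.12% of expanded and 4.01% of single chains) was higher in 4 of 4, with an adjusted p of 0.27. The TRBJ2 cluster as a whole was higher among expanded clonotypes in 4 of 4 libraries in both other populations. In CD8 it took 72.0%, 78.0%, 72.0% and 73.2% of expanded chains, against 68.5%, 70.6%, 68.0% and 67.0% of single chains (difference 5.26 percentage points ± 1.85, SD; two-sided exact permutation test, p = 0.12). In CD4 conventional cells it took 73.2%, 70.8%, 72.1% and 69.6% of expanded chains, against 69.9%, 66.7%, 69.6% and 69.5% of single chains (2.48 ± 1.73; exact p = 0.12). That p is the smallest that 4 pairs allow. TRAJ segments numbered 41 and above took 39.0% ± 5.01 of expanded and 36.6% ± 0.92 of single CD8 chains (exact p = 0.5), and 39.5% ± 5.70 of expanded and 35.9% ± 1.39 of single CD4 conventional chains (exact p = 0.375).

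The segments of invariant receptors were used mostly outside those receptors. TRAJ18 made up 2.90% ± 1.54 of Treg, 3.10% ± 1.08 of CD8 and 3.69% ± 0.75 of CD4 conventional chains. It was joined to TRAV11 in 2 of 29 Treg chains, 0 of 66 CD8 chains and 46 of 257 CD4 conventional chains. Of those 46, in 6, 12, 11 and 17 clonotypes of replicates 1 to 4, none was expanded, and 44 carried the same 15-residue CDR3 with 44 different TRB sequences. It was written in 5 nucleotide forms, the commonest of which keeps the whole TRAJ18 end, shown in capitals.
TRAV11-TRAJ18: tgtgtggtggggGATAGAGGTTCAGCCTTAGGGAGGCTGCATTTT
TRAJ33 made up 1.75% ± 1.02 of Treg, 1.96% ± 0.54 of CD8 and 1.51% ± 0.26 of CD4 conventional chains and was joined to TRAV1 in 0, 0 and 2 chains in the same order.

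CDR3 length followed the segment. Over all chains the mean length ran from 12.1 amino acids for TRAJ31 to 15.4 for TRAJ2 among the TRAJ, and from 13.3 for TRBJ1-1 to 14.6 for TRBJ2-3 among the TRBJ. TRAJ33 (12.5) and TRAJ43 (12.5) were also short, and TRAJ53 (14.95), TRAJ32 (14.9) and TRAJ18 (14.8) long. Across segments the mean length correlated with the number of bases in the CDR3 end of the segment, with Pearson's r of 0.919 over 42 TRAJ and 0.739 over 12 TRBJ, and with the RefSeq length of the segment at 0.872 and 0.710. The chains that give the length also give the end, so these are descriptions. TRBJ2-7 had the shortest end, 15 bases, yet a mean of 13.4, close to TRBJ1-1 with 18 bases.

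**Figure D4:**
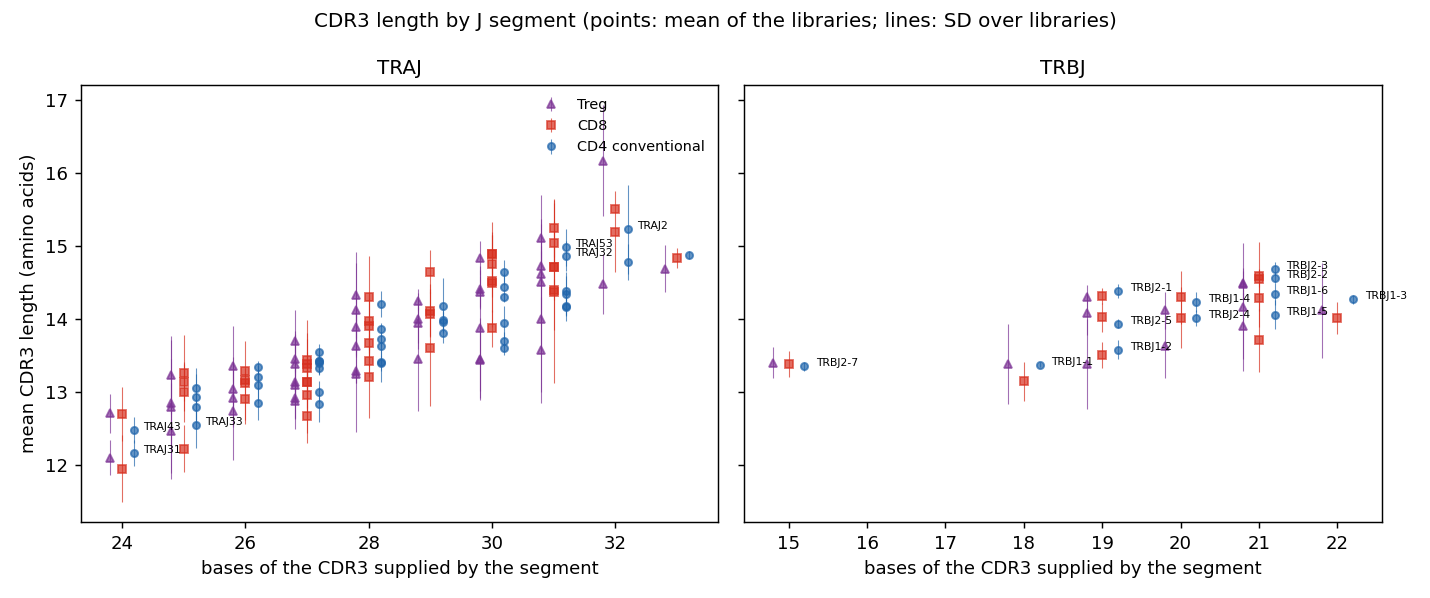
Mean CDR3 length in amino acids against the bases of the CDR3 supplied by the segment, for 42 TRAJ and 12 TRBJ segments in Treg (triangles), CD8 (squares) and CD4 conventional (circles) clonotypes; points are means of the libraries and lines the SD. Length rises with the end of the segment in each population, from TRAJ31 (12.1 over all chains) to TRAJ2 (15.4).

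Between populations the lengths were close. The mean TRA CDR3 was 13.7 ± 0.05 amino acids in CD8 and 13.6 ± 0.08 in CD4 conventional clonotypes, longer in CD8 in 4 of 4 libraries (difference 0.11 ± 0.096, SD; two-sided exact permutation test, p = 0.12), and with the usage of segments held equal the difference was 0.086 ± 0.030, again in 4 of 4. In Treg it was 13.5 ± 0.08, shorter than in CD4 conventional clonotypes in 3 of 4 (−0.081 ± 0.061; exact p = 0.25). The mean TRB CDR3 was 13.87 ± 0.14 in Treg, 13.91 ± 0.10 in CD8 and 13.96 ± 0.05 in CD4 conventional clonotypes (exact p = 0.375 for Treg and 0.5 for CD8). Expanded clonotypes had a TRA CDR3 longer than single ones by 0.27 ± 0.39 in CD8 and 0.14 ± 0.17 in CD4 conventional cells, each in 3 of 4 libraries (exact p = 0.25). With segment usage held equal these differences were 0.18 ± 0.32 in CD8 and 0.043 ± 0.14 in CD4 conventional cells. The differences with usage not held equal also moved with the setting. In CD8 the difference was 0.074 without replicate 3 and 0.41 with expansion counted from 3 cells. In CD4 conventional cells it was 0.072 without replicate 2. Segment by segment, limma with the number of clonotypes as weight called 0 of 15 TRAJ (0%) and 0 of 11 TRBJ (0%) in either comparison, for the segments with at least 5 clonotypes in every sum. At an unadjusted p under 0.05 stood 4 of 15 TRAJ (26.7%) for CD8 against CD4 conventional, 1 of 15 (6.67%) for Treg, and 0 of 11 TRBJ for either, and no other tool was run. The 4 were TRAJ52 (0.41 ± 0.18 amino acids longer in CD8, SE), TRAJ50 (0.36 ± 0.16), TRAJ32 (0.35 ± 0.14) and TRAJ48 (−0.30 ± 0.14), each with an adjusted p of 0.13.

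A second TRA chain was read in 984 clonotypes, and its TRAJ lay near that of the first. The segment numbers of both chains differed by 10.1, 10.4, 9.92 and 9.98 on average in replicates 1 to 4, against 15.6, 16.0, 15.8 and 16.8 for TRA chains of different clonotypes with 2 TRA chains in the same library (difference −5.97 ± 0.60, SD, smaller in 4 of 4; two-sided exact permutation test, p = 0.12). The library means did not overlap, while the individual pairs did. Differences of 10 to 14 made up 15.6% ± 2.8 of pairs within a clonotype and 15.9% ± 0.39 of pairs between clonotypes. Differences of 0 to 4 made up 31.0% ± 2.98 of pairs within a clonotype and 17.1% ± 0.41 of pairs between clonotypes. Both segments were numbered 41 or above in 216 clonotypes, both 21 to 40 in 263 and both 20 or below in 93. In 36 clonotypes 1 segment was numbered 41 or above and the other 20 or below. The remaining clonotypes paired neighbouring ranges, and the counts that usage alone would give were not computed. The same segment was used on both chains in 44 clonotypes, and 0 of these pairs had the same V gene with CDR3s at most 2 bases apart.

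**Figure D5:**
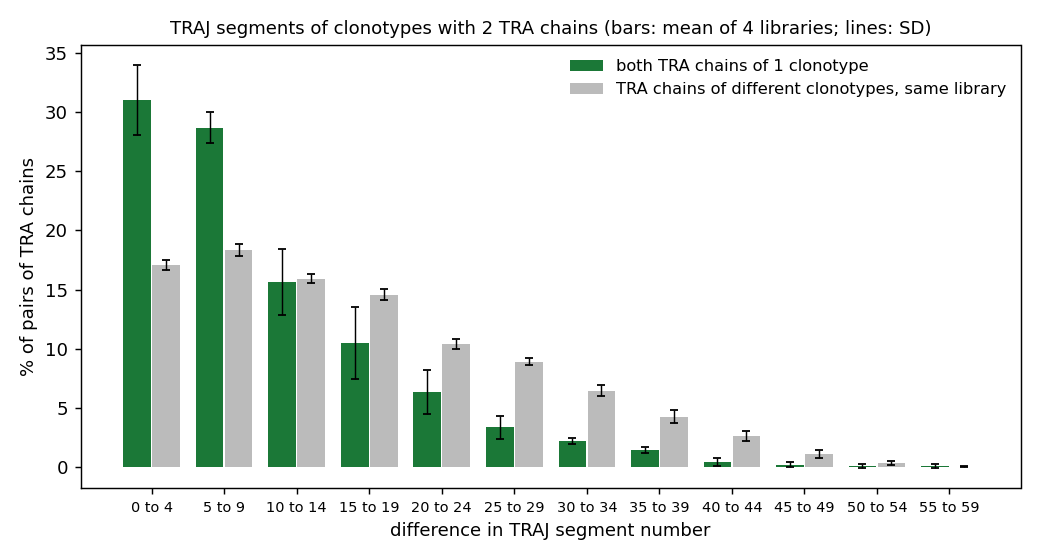
Difference in TRAJ number between both TRA chains of 1 clonotype and between TRA chains of different clonotypes of the same library, as percent of pairs; bars are means of 4 libraries and lines the SD. Pairs within a clonotype crowd at small differences, with 31.0% at 0 to 4 against 17.1% between clonotypes.

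Some segments were absent from productive chains. TRAJ3, TRAJ19, TRAJ20, TRAJ25, TRAJ29, TRAJ35, TRAJ41, TRAJ46, TRAJ59 and TRBJ1-7 were not called in any. TRAJ35 occurred in 284 non-productive contigs of 282 barcodes, TRAJ41 in 138 and TRAJ25 in 14.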

How the data were processed

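The mRNA matrices deposited by the authors hold raw UMI counts per gene and antibody, written by Cell Ranger 4.0.0 per the file headers. The submitters' processing notes name the build mm10 and Seurat, with no version or role. The contig tables deposited give counts of UMIs and reads per contig, made with software whose version the sources used here do not name. Antibody counts come from the same matrices.

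Barcodes with at least 500 UMIs, 300 genes and at most 8% mitochondrial UMIs were kept, 27184 of 27423. No doublet caller was run, and barcodes with more than 1 TRB were left out. A barcode meeting both the Treg and the CD8 rule (26) or no rule (1372) entered no population, and the Treg rule asks for no CD4 count. A clonotype found in several populations was counted in each. Clonotype counts by segment were tested across populations with edgeR 4.0.16, TRAJ and TRBJ apart, on segments with at least 10 counts, scaled by the total per sum, with the replicate as block because the populations come from the same library. Deviations of same-numbered populations did not run together (correlations of −0.45 to 0.24). Lengths were tested in limma 3.58.1, and shares by exact permutation over 4 libraries, 17 tests adjusted together by Benjamini-Hochberg. Both edgeR and limma drew on the variance of all segments of a chain. For the TRBJ across populations the common dispersion in edgeR, the spread beyond counting error, was 9.8e-05, so those p-values stand close to counting error alone. DESeq2 1.42.0, other gates, scalings and clone definitions and leaving out each replicate were alternatives. On simulated CD8 counts with 3 of 42 TRAJ halved per draw, edgeR recovered 49 of 60 over 20 draws with 7 false calls, and with 1 of 12 TRBJ halved 20 of 20 with 1. The share taken from each halved segment was added to 1 other, so the rest kept their shares, which need not hold in the data. With no segment changed, 20 draws gave 1 false call among the TRAJ and 2 among the TRBJ. Lengths were also simulated by shuffling them within each segment and adding 1 amino acid to the commonest segments in CD8. There limma recovered 60 of 80 TRAJ with 7 false calls and 80 of 80 TRBJ with 9. The changed TRAJ included TRAJ26, which had too few clonotypes per sum to be tested, so not all 80 could be called. The largest difference observed was 0.41 amino acids (TRAJ52 in CD8), and shifts that small were not simulated.

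Named were all TRBJ, the 6 most and 4 least used TRAJ in CD4 conventional clonotypes, each call, up to 3 segments per direction with the same sign in 4 of 4 libraries, and TRAJ18, TRAJ33, TRAJ42 and TRAJ53. TRAJ4, TRAJ6, TRAJ15 and TRAJ40 in comparisons, further leading TRAJ of Treg and CD8, TRAJ37, TRAJ39 and TRAJ50 in clones, and the segments named for length were chosen after their values were seen. The members and lists were chosen with earlier results of these data known.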

Additional observations from a re-analysis of the deposited data

Results flagged for a closer look

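The TRBJ2 share of CD8 minus that of CD4 conventional clonotypes was 4.40 percentage points in replicate 2, far from the other libraries, which lay between −1.91 and −1.28. The TRBJ2 share of single CD4 conventional clonotypes was 66.7% in replicate 2, below the other libraries at 69.5% to 69.9%. The mean TRB CDR3 length of CD4 conventional clonotypes, which serves in the Treg and in the CD8 comparison, was 13.88 amino acids in replicate 4, below the others. The TRB CDR3 of expanded minus that of single CD4 conventional clonotypes was −0.19 amino acids in replicate 3, where the other libraries were above 0. The threshold was Dixon's 95% critical value, which chance passes in about 1 of 20 groups, and 4 of 61 different groups passed it. The expansion effect on TRAJ16 differed between CD8 and CD4 conventional clonotypes with an adjusted p of 0.032 in edgeR, a difference that did not hold in DESeq2. TRAJ35, in no productive chain, had 9 UMIs in the mRNA libraries, above the limit of 3 counts.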

How the results depend on the processing

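Whole comparisons were labelled by their number of calls or, for shares, mean lengths and TRAJ distance, by the sign of the difference. A number that went from 2 to 3 calls was still labelled the same. Under other settings 222 values were labelled the same, 15 moved and 3 reversed, and leaving out 1 library 112, 14 and 6 were. The log2 fold change of TRAJ23 in CD8 ran from −1.45 to −0.88. Of the 2 TRAJ calls for expanded CD4 conventional clonotypes, 1 was left with TMM scaling, 1 with 1 TRA chain only, 1 with clone size over the library, and 0 with DESeq2 or expansion from 3 cells. The 1 interaction call became 0 under those 5 settings and with merged clonotypes. The 2 TRBJ calls in CD8 became 0 with TMM and DESeq2, and TRBJ2-1 joined them for 3 calls with 1 TRA chain only, merged clonotypes or no replicate block. The Treg TRBJ count rose from 0 to 1 with 1 TRA chain only, and the TRBJ count for expanded CD4 conventional clonotypes from 0 to 1 with TMM (TRBJ2-3, adjusted p = 0.034). Leaving out 1 library at a time gave 1 to 2 TRAJ calls in CD8, 0 to 3 for expanded CD4 conventional clonotypes and 0 for the interaction, and 0 to 2 TRBJ calls in CD8, 0 to 1 in Treg, 0 to 1 for expanded CD8 and 0 to 1 for the interaction. Near-zero differences reversed: the share of TRAJ 41 and above in CD8 (−0.61 with 1 TRA chain only; −0.11 to 1.13 leaving out libraries) and in Treg (−0.063 with merged clonotypes, a setting added after seeing the data; −1.98 to 2.47), the TRBJ2 share in CD8 (−1.51 to 0.60), and TRB length of expanded CD8 (−0.014 with 1 TRA chain only). TRAJ13 reversed among expanded CD8 from 3 cells (−0.68) and among merged expanded Treg (0.39). The cause was not tested. Without the replicate block the TRAJ calls stayed at 1 in CD8, 2 for expanded CD4 conventional clonotypes and 1 for the interaction. A minimum of 10 clonotypes left no TRAJ for the length test. Expanded Treg and CD8 clonotypes gave few chains, and there only large differences could be called.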
